A study of Mus musculus with 20 samples.

Results

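The 41 genes described here are interferon-stimulated genes, chosen by name as genes known to respond to interferons. No value entered the rule, but the list was drawn up with earlier results of these libraries known. All 41 were among the 16669 genes of the deposited table, and all 41 were among the 16461 genes tested. They were measured by RNA sequencing in 20 libraries of mouse ear pinnae, 5 for each injected solution. Recombinant IL-4, IL-13 or IL-31 in PBS, 10 µl at 0.1 µg/µl, was given intradermally in the right ear, and control mice received PBS in the right ear. Every group therefore carries an injection, and the control is a PBS-injected ear, not an untouched one. Strain, age, sex and the interval before tissue collection are not stated. Nor are the 5 samples of a group said to be separate animals, and p-values then measure only how these samples spread, which may be technical. Samples are named by their group and the number in their label, as in PBS library 5.

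Interferons are secreted proteins that signal through cell-surface receptors and JAK kinases. Type I and type III interferons assemble a complex with STAT2 and IRF9 that binds the interferon-stimulated response element (ISRE), and interferon gamma acts through the gamma-activated site (GAS). The genes so induced restrict viruses and intracellular bacteria, sense foreign nucleic acid, process antigen and feed back on the pathway itself. In skin these genes are made by keratinocytes, endothelium and resident and arriving leukocytes. IL-4 and IL-13 share a receptor chain and signal mainly through STAT6, and IL-31 is a cytokine known for causing itch.

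Sequence upstream of the transcription start was taken from RefSeq on GRCm38.p6, where 32 of the 41 genes matched. The ISRE core was searched as GAAANNGAAA on both strands over a window of 250 bases before to 50 after the start, with overlapping matches counted. It was found for 19 of the 32 genes (59.4%), against 3.99% of the 27025 genes in the promoter table. A GAS written as TTCNNNGAA was found for 9 of the 32 (28.1%), against 9.55% of all genes, and the spacing TTCNNNNGAA for 5 (15.6%), against 8.01%. A match is a description of letters and not a site shown to be bound. The 200 bases before the start are printed for 7 genes, 5′ to 3′ on the gene's strand, with ISRE core matches in capitals. They are Oasl1 and Rsad2, whose levels varied widely between libraries, Isg15, a well-known ISRE gene, 3 neighbours of the Ifit cluster, and Irgm2, which varied little.
Isg15 (chr4:156200819-156201018, minus strand): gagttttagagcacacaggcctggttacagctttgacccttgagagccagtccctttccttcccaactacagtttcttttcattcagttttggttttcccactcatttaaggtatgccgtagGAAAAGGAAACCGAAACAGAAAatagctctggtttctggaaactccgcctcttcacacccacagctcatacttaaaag
Rsad2 (chr12:26456453-26456652, minus strand): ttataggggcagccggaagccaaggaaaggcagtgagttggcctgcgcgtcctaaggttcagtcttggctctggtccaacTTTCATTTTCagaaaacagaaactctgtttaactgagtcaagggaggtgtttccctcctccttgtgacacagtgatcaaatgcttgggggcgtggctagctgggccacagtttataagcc
Ifit1 (chr19:34640689-34640888, plus strand): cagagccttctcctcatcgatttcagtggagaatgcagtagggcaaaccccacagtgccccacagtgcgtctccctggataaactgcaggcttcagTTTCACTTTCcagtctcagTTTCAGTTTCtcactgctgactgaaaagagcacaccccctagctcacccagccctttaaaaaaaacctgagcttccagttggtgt
Ifit3 (chr19:34583329-34583528, plus strand): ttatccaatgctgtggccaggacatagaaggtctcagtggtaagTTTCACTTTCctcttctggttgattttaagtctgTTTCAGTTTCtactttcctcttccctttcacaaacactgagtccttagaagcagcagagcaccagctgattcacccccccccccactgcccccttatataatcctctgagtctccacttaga
Ifit3b (chr19:34607757-34607956, plus strand): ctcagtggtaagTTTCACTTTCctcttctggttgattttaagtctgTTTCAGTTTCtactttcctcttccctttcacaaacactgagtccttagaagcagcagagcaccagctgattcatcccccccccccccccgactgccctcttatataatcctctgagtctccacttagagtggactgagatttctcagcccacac
Oasl1 (chr5:114923040-114923239, plus strand): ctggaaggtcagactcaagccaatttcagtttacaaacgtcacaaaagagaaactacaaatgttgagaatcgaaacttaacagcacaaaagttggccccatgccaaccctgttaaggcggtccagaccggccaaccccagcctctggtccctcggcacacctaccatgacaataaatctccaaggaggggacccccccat
Irgm2 (chr11:58214777-58214976, plus strand): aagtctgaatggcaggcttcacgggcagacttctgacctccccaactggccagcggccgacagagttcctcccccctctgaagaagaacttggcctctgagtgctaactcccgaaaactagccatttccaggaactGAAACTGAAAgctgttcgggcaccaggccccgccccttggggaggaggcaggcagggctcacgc

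Isg15 held 3 overlapping matches that begin between bases -78 and -66, counted back from the start. Ifit1 held 2, at -104 and -85. Ifit3 and Ifit3b carried the same pair, at -156 and -122 in Ifit3 and at -188 and -154 in Ifit3b, inside an identical run of 119 bases. Irgm2 held 1 match at -64, and Oasl1 held none of these letters in its window.

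Depth, read from the spacing of the low values, had a median of 12.98 M reads per library (M, mega), with 6.11 M in IL-4 library 5 as the lowest and 23.7 M in IL-31 library 4 as the highest. Several libraries stood apart in their cell type markers. A neutrophil score, the mean over 21 neutrophil marker genes of log2 CPM centred on each gene's own mean, split the libraries into 9 above 0 and 11 below, with none between -0.94 and 0.36. The libraries above 0 were IL-4 library 4, IL-13 libraries 1 and 3, IL-31 libraries 1, 3 and 4, and PBS libraries 1, 3 and 5. PBS library 5 had the highest macrophage score (1.64, where the other 19 libraries lay between -0.80 and 0.67). PBS libraries 1, 2 and 3 had the lowest epidermal scores (-2.03 to -1.25). Skeletal muscle markers were lower in IL-4 and IL-13 ears: all 20 listed genes were called lower in both comparisons with PBS, and none of them in the IL-31 comparison.

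Ifi27l2a, a small interferon-induced membrane protein gene of the Ifi27 family (ENSMUSG00000079017, GRCm38 chr12:103442167-103443680, minus strand), fell in IL-4 and IL-13 ears. Its values were 4.54, 3.72, 3.64, 3.79 and 3.56 log2 CPM in IL-4 ears, 3.54, 3.93, 2.79, 3.28 and 3.70 in IL-13 ears and 4.72, 4.82, 3.86, 4.00 and 4.93 in IL-31 ears, against 5.10, 5.67, 5.51, 4.89 and 5.21 in PBS ears. Each IL-4 and IL-13 library was below each PBS library, and among IL-31 libraries only library 5 reached above the lowest PBS value. Means were 3.85 ± 0.39 log2 CPM in IL-4 ears, 3.45 ± 0.44 in IL-13 ears and 4.47 ± 0.50 in IL-31 ears, against 5.27 ± 0.31 in PBS ears (SD, n = 5 each). The log2 fold change was -1.42 ± 0.24 (SE) for IL-4, or 2.68-fold lower, with a limma adjusted p of 0.00138. For IL-13 it was -1.82 ± 0.24, or 3.54-fold lower, with an adjusted p of 0.000938. The IL-31 difference was -0.81 ± 0.24 and did not pass (adjusted p = 0.0518). The 3 comparisons share the same 5 PBS libraries. Differences between the cytokines did not pass either: 0.40 ± 0.24 for IL-4 against IL-13 (adjusted p = 0.997), -0.62 ± 0.24 for IL-4 against IL-31 (adjusted p = 0.331) and -1.02 ± 0.24 for IL-13 against IL-31 (adjusted p = 0.215).

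The fall of Ifi27l2a in IL-4 and IL-13 ears kept its call without any 1 of the 10 libraries compared, with log2 fold changes of -1.60 to -1.33 for IL-4 and -1.95 to -1.66 for IL-13. Among the 11 libraries with a neutrophil score below 0, PBS libraries 2 and 4 were the only controls. There the Ifi27l2a difference was -1.41 for IL-4 (limma adjusted p = 0.0174) and -1.64 for IL-13 (limma adjusted p = 0.025). Among the 9 above 0, where IL-4 has 1 library and IL-13 has 2, it was -1.48 (adjusted p = 0.319) and -2.11 (adjusted p = 0.0759), and the lone IL-4 library is taken to vary like the other groups. That fit called 0 of the 16461 genes in either comparison. With the skeletal muscle score as a covariate it was -1.24 for IL-4 (adjusted p = 0.179) and -1.65 for IL-13 (adjusted p = 0.176), in a fit that called 2 of all tested genes for IL-4 and 0 for IL-13. The muscle score differs between these groups and PBS as a whole, so muscle content and the injected cytokine cannot be told apart by that fit.

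**Figure D1:**
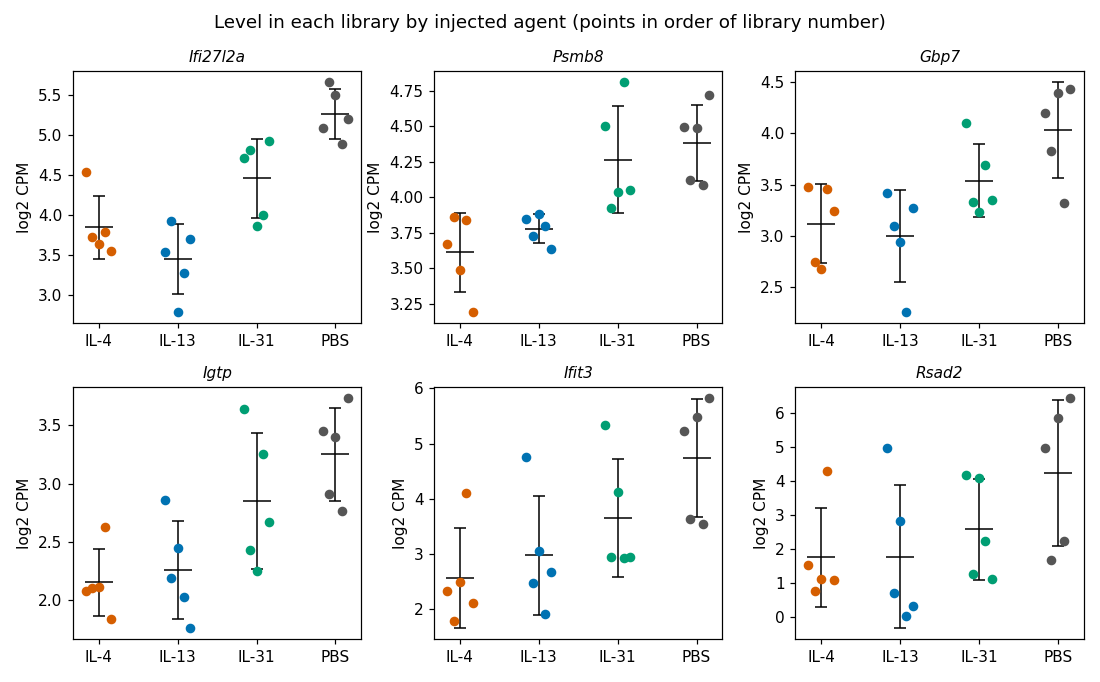
Log2 CPM of 6 genes in each library (points, in order of library number) by injected agent, with the mean and SD of 5 libraries as a line and bars. All IL-4 and IL-13 points of Ifi27l2a and Psmb8 lie below the 5 PBS points, while Rsad2 splits within each group.

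Across the whole set, IL-4 ears had 23 of the 41 genes called lower (56.1%) and 0 called higher, against 9.63% of all tested genes called lower. IL-13 ears had 17 lower (41.5%) and 0 higher, against 9.8% of all tested genes. IL-31 ears had 0 called in either direction, against 1.2% of all tested genes called lower. An unadjusted limma p under 0.05 was reached by 5 of the 41 for IL-31, and by 3921 of all 16461 tested genes. A call means a two-sided limma adjusted p under 0.05 over all 16461 genes. In the small lists below, 0 or 1 call is close to these shares of all tested genes. The median log2 fold change of the 41 genes was -1.38 for IL-4, -1.21 for IL-13 and -0.69 for IL-31, beside medians of -0.02, -0.03 and -0.04 over all tested genes. In 40 of the 41 genes the mean was lower than in PBS ears in all 3 comparisons, which share the PBS libraries. The exception was Irgm2 in IL-31 ears. Many of these genes rose and fell together across libraries, so they are not 40 separate results. The share among all tested genes was not counted. The groups did not overlap, with each cytokine library below each PBS library, in 6 genes for IL-4 (background 5.89%), 3 for IL-13 (background 5.01%) and 0 for IL-31 (background 1.43%). The 6 were Ifi27l2a, Psmb8, Psmb9, Igtp, Iigp1 and Gbp3, and the 3 were Ifi27l2a, Psmb8 and Iigp1. In bulk tissue, fewer cells of a type and less RNA per cell cannot be told apart.

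These counts were sensitive to single libraries. Of the 23 IL-4 calls, 9 held without any 1 library (Bst2, Gbp7, Ifi27l2a, Ifit3, Igtp, Iigp1, Psmb8, Psmb9 and Trim30a), and of the 17 IL-13 calls, 4 did (Gbp7, Ifi27l2a, Igtp and Psmb8). Without PBS library 5, which was the highest of the 20 libraries for 35 of the 41 genes, the counts were 10 for IL-4 and 6 for IL-13, beside 9.76% and 13.1% of all tested genes called lower, and the IL-13 share was then close to that of all genes. Without PBS libraries 1, 2 and 3 they were 4 and 1, beside 4.66% and 1.82% of all tested genes. Leaving out PBS library 1 or 3, any of IL-4 libraries 1, 2, 3 and 5, or any of IL-13 libraries 2 to 5 also moved the count of its comparison by more than 1.5 times, to between 9 and 13 for IL-4 and between 4 and 10 for IL-13. Of all tested genes, 7.02 to 9.16% were called lower in those IL-4 fits and 6.46 to 10.9% in those IL-13 fits.

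**Figure D2:**
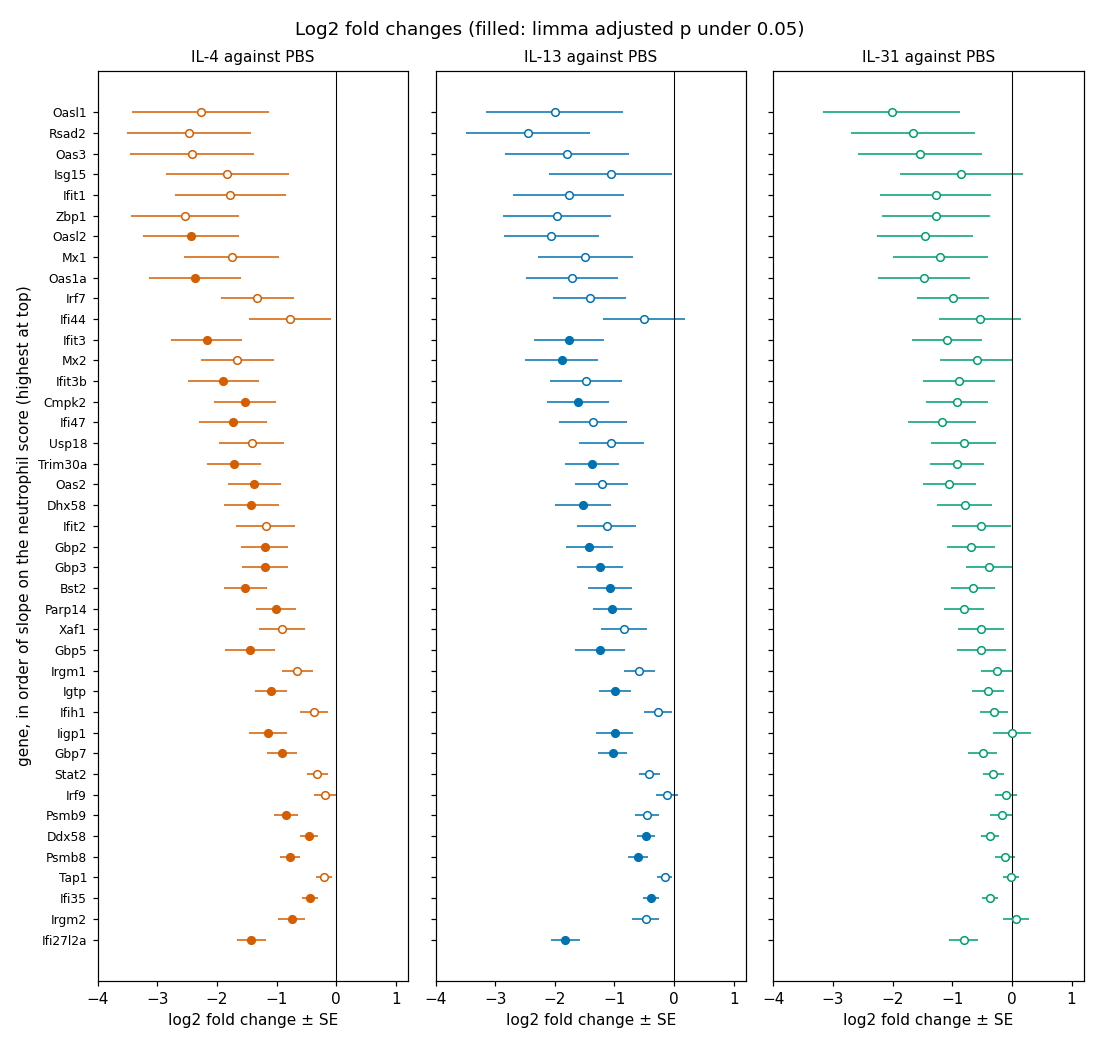
Log2 fold change with SE of the 41 genes in each cytokine group against PBS (5 libraries each), with genes ordered by their slope on the neutrophil score and filled points for limma adjusted p under 0.05. Genes at the top have larger fold changes and wider errors than those at the bottom, and the IL-31 panel holds no filled point.

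The Ifit genes encode proteins that bind foreign RNA and block its translation, and 4 sit together on chromosome 19. IL-4 ears had 2 of 4 called lower, IL-13 ears 1 and IL-31 ears 0, against 9.63, 9.8 and 1.2% of all tested genes. Ifit3 had 2.33, 1.78, 2.49, 4.11 and 2.12 log2 CPM in IL-4 ears, 4.75, 2.49, 3.06, 1.92 and 2.68 in IL-13 ears and 5.33, 2.94, 4.13, 2.93 and 2.96 in IL-31 ears, against 5.23, 3.64, 5.47, 3.55 and 5.82 in PBS ears. High values came from IL-4 library 4, IL-13 library 1, IL-31 libraries 1 and 3 and PBS libraries 1, 3 and 5, and the other IL-4 and IL-13 libraries were all below every PBS library. Its log2 fold change was -2.18 ± 0.59 for IL-4 (adjusted p = 0.0159), -1.76 ± 0.59 for IL-13 (adjusted p = 0.0409) and -1.09 ± 0.59 for IL-31 (adjusted p = 0.265). Ifit3b was called in IL-4 ears (-1.89 ± 0.60, adjusted p = 0.0351). Reads of this pair are uncertain, since 41.1% of the 75-base windows of the Ifit3 transcript also occur in Ifit3b. Ifit1 (-1.78 for IL-4 and -1.77 for IL-13) and Ifit2 (-1.18 and -1.13) did not pass.

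The Oas genes encode 2′-5′-oligoadenylate synthetases, which activate RNase L when they meet double-stranded RNA, and their relatives Oasl1 and Oasl2. Of 5, IL-4 ears had 3 called lower (Oas1a, Oas2 and Oasl2), and IL-13 and IL-31 ears had 0. The shares of all tested genes were 9.63, 9.8 and 1.2%. Oas2 had 1.37, 2.04, 1.21, 2.93 and 1.84 log2 CPM in IL-4 ears, 3.12, 1.70, 2.30, 1.22 and 1.85 in IL-13 ears and 2.61, 1.79, 2.65, 2.30 and 1.66 in IL-31 ears, against 3.28, 2.78, 3.85, 1.77 and 4.59 in PBS ears. The lowest PBS library, number 4, lay among the IL-4 and IL-13 libraries. Oas2 changed by -1.38 ± 0.44 in IL-4 ears (adjusted p = 0.0376), and was -1.21 ± 0.44 in IL-13 ears (adjusted p = 0.0604). Oas1a shares 47.6% of its 75-base windows with Oas1g, so its fold change in IL-4 ears (-2.36 ± 0.77, adjusted p = 0.0389) may include reads of that gene.

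Oas3 and Oasl1 had fold changes of similar size and no call. Oas3 had -0.88, 0.17, 0.52, 3.01 and -0.63 log2 CPM in IL-4 ears, 3.92, 0.01, 2.06, -0.31 and -0.43 in IL-13 ears and 3.00, 0.17, 3.30, 1.10 and -0.99 in IL-31 ears, against 3.57, 0.75, 4.35, 0.72 and 4.86 in PBS ears. Oasl1, whose protein is known in mice to inhibit translation of Irf7, had -0.44, -0.44, -1.34, 2.78 and -0.63 log2 CPM in IL-4 ears, 3.23, -1.10, 1.47, -0.18 and -2.13 in IL-13 ears and 2.21, -2.68, 2.08, 0.12 and -0.49 in IL-31 ears, against 3.03, -0.53, 3.92, 0.37 and 4.52 in PBS ears. In both genes the 9 libraries with a neutrophil score above 0 exceeded nearly all others, whichever agent was injected, and every group spanned low and high values. The Oas3 difference was -2.41 ± 1.04 for IL-4 (adjusted p = 0.116), and that of Oasl1 was -2.28 ± 1.15 (adjusted p = 0.182). Oasl1 stood at the lowest value of the table in IL-31 library 2.

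Of 8 other antiviral genes, IL-4 ears had 3 called lower (Bst2, Cmpk2 and Trim30a), IL-13 ears 4 (the same 3 and Mx2) and IL-31 ears 0. Of all tested genes, 9.63, 9.8 and 1.2% were called lower. Bst2 encodes tetherin, which holds budding virions at the cell surface. Bst2 had 2.48, 2.55, 2.62, 3.83 and 2.09 log2 CPM in IL-4 ears, 3.85, 2.83, 3.59, 2.54 and 3.01 in IL-13 ears and 4.29, 3.49, 3.52, 3.26 and 3.38 in IL-31 ears, against 4.91, 3.63, 4.55, 3.13 and 4.99 in PBS ears. Apart from IL-4 library 4, the IL-4 libraries were all below the lowest PBS library. Its log2 fold change was -1.53 ± 0.36 for IL-4 (adjusted p = 0.00811) and -1.08 ± 0.36 for IL-13 (adjusted p = 0.0427), and -0.65 ± 0.36 for IL-31 (adjusted p = 0.275). Trim30a, a TRIM protein gene, fell by 1.72 in IL-4 ears (adjusted p = 0.0135) and by 1.37 in IL-13 ears (adjusted p = 0.0389). Cmpk2, a mitochondrial nucleotide kinase encoded beside Rsad2 on chromosome 12, changed by -1.53 in IL-4 ears (adjusted p = 0.049) and -1.61 in IL-13 ears (adjusted p = 0.0365).

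Rsad2 encodes viperin, which makes a chain-terminating nucleotide. It had 1.52, 0.77, 1.11, 4.31 and 1.08 log2 CPM in IL-4 ears, 4.98, 0.70, 2.84, 0.04 and 0.33 in IL-13 ears and 4.17, 1.27, 4.08, 2.24 and 1.12 in IL-31 ears, against 4.98, 1.68, 5.85, 2.24 and 6.44 in PBS ears. The 9 libraries with a neutrophil score above 0 ran from 2.24 to 6.44, and the other 11 from 0.04 to 2.24. Although its log2 fold changes were among the largest of the set, -2.48 ± 1.04 for IL-4 and -2.46 ± 1.04 for IL-13, neither passed (adjusted p = 0.106 and 0.103). Mx2, a gene of the dynamin-like GTPase family that GENCODE M21 annotates as a polymorphic pseudogene, was called in IL-13 ears (-1.89 ± 0.61, adjusted p = 0.0355). Mx1 (-1.76 for IL-4 and -1.49 for IL-13), Ifi44 (-0.78 and -0.50) and Xaf1 (-0.92 and -0.85) did not pass in any comparison.

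Sensors of foreign nucleic acid were represented by Ddx58 (RIG-I), Ifih1 (MDA5), Dhx58 (LGP2) and Zbp1, which senses Z-form nucleic acid. IL-4 and IL-13 ears each had 2 of 4 called lower, Ddx58 and Dhx58, and IL-31 ears had 0. The shares of all tested genes were 9.63, 9.8 and 1.2%. Ddx58 had 4.34, 4.10, 4.17, 4.35 and 4.26 log2 CPM in IL-4 ears, 4.48, 4.19, 4.27, 4.00 and 4.22 in IL-13 ears and 4.79, 4.33, 4.25, 4.22 and 4.08 in IL-31 ears, against 4.65, 4.25, 5.05, 4.45 and 5.11 in PBS ears. Its spread was narrow, and PBS library 2 alone fell inside the IL-4 range. The log2 fold change was -0.46 ± 0.15 for IL-4 (adjusted p = 0.0457) and -0.47 ± 0.15 for IL-13 (adjusted p = 0.0386). Dhx58 changed by -1.42 (adjusted p = 0.0394) and -1.53 (adjusted p = 0.0265). Zbp1 had the most negative IL-4 value of the set, -2.54 ± 0.90, without passing (adjusted p = 0.0566), and Ifih1 was -0.38 for IL-4 and -0.27 for IL-13.

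Neither gene of the ISG15 conjugation system was called. Isg15, a ubiquitin-like modifier, had 0.40, 0.77, 0.26, 3.97 and 0.55 log2 CPM in IL-4 ears, 3.71, 0.12, 3.55, 1.74 and 0.64 in IL-13 ears and 3.48, 0.17, 3.21, 1.47 and 2.48 in IL-31 ears, against 4.06, 0.82, 4.92, -0.08 and 5.35 in PBS ears. PBS libraries 2 and 4 lay near the 4 low IL-4 libraries, and PBS libraries 1, 3 and 5 were the 3 highest of the 20. The log2 fold change was -1.83 ± 1.03 for IL-4, -1.06 ± 1.03 for IL-13 and -0.85 ± 1.03 for IL-31 (adjusted p = 0.241, 0.497 and 0.627). With the neutrophil score as a covariate the Isg15 difference was 0.15 for IL-13 and 0.16 for IL-31, without a call. These values are above 0 but small beside the SE of 1.03 in the fit without the score. Usp18, which removes ISG15 and dampens interferon receptor signalling, was -1.42 ± 0.55 for IL-4 (adjusted p = 0.0796).

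Among 5 genes of transcriptional control, Ifi35 and Parp14 were called lower in IL-4 and in IL-13 ears, and 0 in IL-31 ears. Of all tested genes, 9.63, 9.8 and 1.2% were called lower. Ifi35, a partner of NMI, had 4.36, 4.28, 4.38, 4.20 and 4.28 log2 CPM in IL-4 ears, 4.43, 4.46, 4.57, 4.20 and 4.07 in IL-13 ears and 4.57, 4.36, 4.27, 4.51 and 4.14 in IL-31 ears, against 4.94, 4.45, 4.84, 4.33 and 5.13 in PBS ears. Its PBS libraries 1, 3 and 5 were above every IL-4, IL-13 and IL-31 library, and PBS libraries 2 and 4 were not. The change was -0.44 ± 0.14 for IL-4 (adjusted p = 0.0318) and -0.39 ± 0.14 for IL-13 (adjusted p = 0.049), and the IL-31 value of -0.37 ± 0.14 did not pass (adjusted p = 0.109). Parp14, an ADP-ribosyltransferase also known as a STAT6 cofactor, fell by 1.01 in IL-4 ears (adjusted p = 0.0412) and by 1.03 in IL-13 ears (adjusted p = 0.0348).

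Stat2, which joins IRF9 in the ISRE-binding complex, had 5.35, 4.95, 5.23, 5.48 and 4.86 log2 CPM in IL-4 ears, 5.26, 4.99, 5.33, 4.89 and 4.92 in IL-13 ears and 5.52, 4.84, 5.26, 5.07 and 5.21 in IL-31 ears, against 5.39, 5.13, 5.87, 5.09 and 5.98 in PBS ears. All groups overlapped, and the differences of -0.32 ± 0.17 for IL-4, -0.41 ± 0.17 for IL-13 and -0.31 ± 0.17 for IL-31 did not pass (adjusted p = 0.224, 0.0998 and 0.277). Irf9 was close to its PBS level, at -0.19 ± 0.19 for IL-4 and -0.12 ± 0.19 for IL-13. Irf7, the amplifier of type I interferon production, was -1.32 ± 0.61 for IL-4 and -1.42 ± 0.61 for IL-13 without passing (adjusted p = 0.14 and 0.105).

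The interferon-inducible GTPases, which attack the vacuoles of intracellular pathogens and respond strongly to interferon gamma, were called lower in 8 of 9 cases in IL-4 ears, the exception being Irgm1. IL-13 ears had 6 of 9 and IL-31 ears 0. The shares of all tested genes called lower were 9.63% for IL-4, 9.8% for IL-13 and 1.2% for IL-31. Gbp7 had 3.47, 2.74, 2.68, 3.45 and 3.24 log2 CPM in IL-4 ears, 3.42, 3.09, 2.94, 2.26 and 3.27 in IL-13 ears and 4.10, 3.33, 3.23, 3.69 and 3.35 in IL-31 ears, against 4.19, 3.83, 4.39, 3.32 and 4.43 in PBS ears. Of the PBS libraries, 4 exceeded every IL-4 and IL-13 library, and number 4 did not. Gbp7 changed by -0.91 ± 0.25 in IL-4 ears (adjusted p = 0.0161) and -1.03 ± 0.25 in IL-13 ears (adjusted p = 0.00771); in IL-31 ears it was -0.49 ± 0.25 (adjusted p = 0.232). Gbp2, Gbp3 and Gbp5, its neighbours on chromosome 3, were called in IL-4 ears (-1.45 to -1.20) and in IL-13 ears (-1.43 to -1.24). Of the 75-base windows of Gbp7, 11.4% also occur in other transcripts.

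Igtp, an immunity-related GTPase gene on chromosome 11, had 2.08, 2.11, 2.11, 2.63 and 1.84 log2 CPM in IL-4 ears, 2.86, 2.19, 2.45, 2.03 and 1.76 in IL-13 ears and 3.64, 2.43, 2.25, 3.26 and 2.67 in IL-31 ears, against 3.45, 2.91, 3.40, 2.77 and 3.73 in PBS ears. No IL-4 library reached the PBS range, and IL-13 library 1 and IL-31 libraries 1 and 4 did. It changed by -1.10 ± 0.26 in IL-4 ears (adjusted p = 0.00839) and -0.99 ± 0.26 in IL-13 ears (adjusted p = 0.0133), and in IL-31 ears it was -0.40 ± 0.26 (adjusted p = 0.355). Iigp1 changed by -1.15 ± 0.32 (adjusted p = 0.0174) in IL-4 ears and -0.999 ± 0.32 (adjusted p = 0.0325) in IL-13 ears. Ifi47 was called in IL-4 ears alone of the 3 comparisons (-1.73 ± 0.57, adjusted p = 0.04), with -1.36 ± 0.57 in IL-13 ears (adjusted p = 0.0987).

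Irgm1 and Irgm2 had smaller fold changes than Igtp and Iigp1 in IL-4 and IL-13 ears. Irgm1 had 3.05, 3.24, 2.80, 3.80 and 3.45 log2 CPM in IL-4 ears, 3.79, 2.95, 3.22, 3.47 and 3.27 in IL-13 ears and 4.33, 3.53, 3.69, 3.42 and 3.41 in IL-31 ears, against 3.63, 3.44, 4.19, 3.45 and 4.92 in PBS ears. Its groups overlapped, and it was -0.66 ± 0.26 for IL-4 (adjusted p = 0.0904) and -0.58 ± 0.26 for IL-13 (adjusted p = 0.124). Irgm2 had 2.67, 2.17, 2.91, 2.94 and 1.78 log2 CPM in IL-4 ears, 2.92, 2.50, 2.69, 2.92 and 2.79 in IL-13 ears and 3.66, 3.22, 3.00, 3.29 and 3.38 in IL-31 ears, against 2.63, 3.19, 3.20, 3.34 and 3.85 in PBS ears. PBS library 1 was the lowest of its group and lay among the IL-4 and IL-13 values, and every IL-31 library lay inside the PBS range. Irgm2 fell by 0.75 ± 0.22 in IL-4 ears (adjusted p = 0.0262), and was -0.48 ± 0.22 in IL-13 ears (adjusted p = 0.141) and 0.07 ± 0.22 in IL-31 ears (adjusted p = 0.868). The gene models of Igtp and Irgm2 overlap on the same strand, and 8.37% of the Igtp windows occur in Irgm2, so their counts are uncertain.

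Psmb8 and Psmb9, inducible subunits of the immunoproteasome, and Tap1, a peptide transporter subunit, lie within one stretch of chromosome 17. IL-4 ears had 2 of 3 called lower, IL-13 ears 1 and IL-31 ears 0, against 9.63, 9.8 and 1.2% of all tested genes. Psmb8 had 3.67, 3.86, 3.49, 3.84 and 3.19 log2 CPM in IL-4 ears, 3.85, 3.73, 3.89, 3.80 and 3.64 in IL-13 ears and 4.50, 3.93, 4.04, 4.81 and 4.05 in IL-31 ears, against 4.49, 4.12, 4.49, 4.09 and 4.72 in PBS ears. Each IL-4 and IL-13 library was below each PBS library, and IL-31 libraries spanned the PBS range. Psmb8 changed by -0.77 ± 0.17 in IL-4 ears (adjusted p = 0.00507) and -0.60 ± 0.17 in IL-13 ears (adjusted p = 0.0176), with -0.12 ± 0.17 in IL-31 ears (adjusted p = 0.689).

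Psmb9 had 2.12, 2.38, 2.14, 2.99 and 2.57 log2 CPM in IL-4 ears, 3.27, 2.39, 2.83, 2.95 and 2.74 in IL-13 ears and 3.03, 3.01, 2.91, 3.56 and 3.07 in IL-31 ears, against 3.16, 3.03, 3.11, 3.32 and 3.83 in PBS ears. IL-4 libraries were all below PBS, and IL-13 library 1 was not. Its difference was -0.85 ± 0.20 for IL-4 (adjusted p = 0.00741) and -0.46 ± 0.20 for IL-13 (adjusted p = 0.113). Tap1 had 5.73, 5.42, 5.30, 5.90 and 5.79 log2 CPM in IL-4 ears, 5.71, 5.60, 5.68, 5.70 and 5.70 in IL-13 ears and 5.88, 5.66, 5.68, 6.06 and 5.81 in IL-31 ears, against 6.07, 5.49, 6.03, 5.55 and 6.03 in PBS ears. Its groups overlapped, and its differences of -0.21 ± 0.13 for IL-4 and -0.16 ± 0.13 for IL-13 did not pass (adjusted p = 0.288 and 0.41). The gene models of Psmb9 and Tap1 overlap at their starts on opposite strands, and whether counting used strand is not stated.

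**Figure D3:**
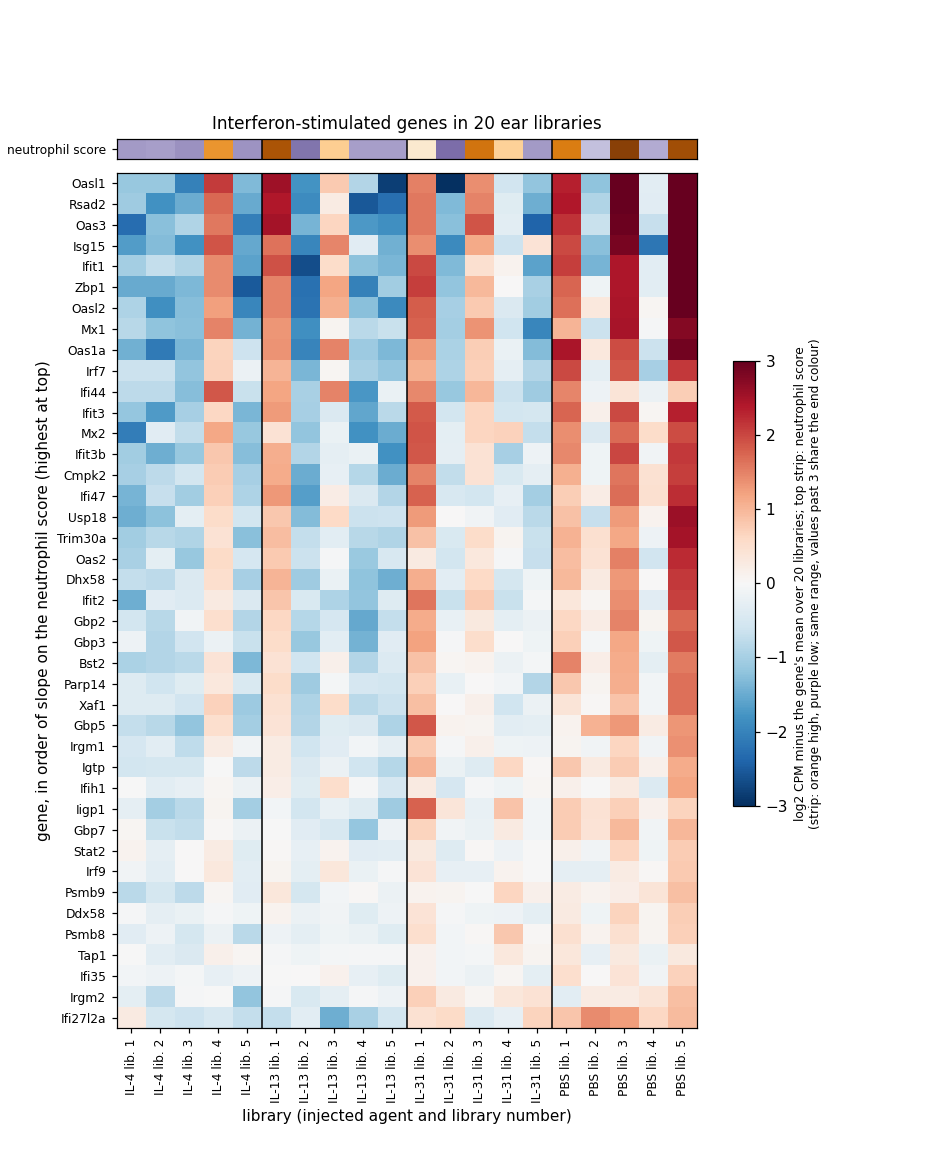
Log2 CPM of the 41 genes (rows, ordered by slope on the neutrophil score) in 20 libraries (columns, by agent), each minus the gene's mean, under a strip of the neutrophil score. The upper rows are red in libraries with an orange strip in all 4 groups and most strongly in PBS library 5, and the last row, Ifi27l2a, is red across PBS and blue in 4 of the 5 IL-4 libraries and all IL-13 libraries.

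Ifi27l2a and Irgm2 had the lowest coefficients on the neutrophil score of the 41 genes. The mean centred level of the 40 genes beside Ifi27l2a was -0.79, -0.82, -0.78, 0.64 and -0.89 in IL-4 libraries 1 to 5, 0.81, -1.01, 0.15, -0.84 and -0.86 in IL-13 libraries and 1.13, -0.53, 0.39, -0.12 and -0.51 in IL-31 libraries, against 1.00, -0.09, 1.39, -0.14 and 1.89 in PBS libraries. The neutrophil scores of the same libraries were -1.38, -1.34, -1.46, 1.58 and -1.44, then 2.46, -1.77, 0.86, -1.33 and -1.34 and 0.36, -1.84, 1.99, 0.80 and -1.38, against 1.85, -0.94, 2.88, -1.18 and 2.60 in PBS. In IL-4 ears the 40 genes were high in library 4, in IL-13 ears in libraries 1 and 3, and in PBS ears in libraries 1, 3 and 5, which are the libraries of high neutrophil score in those groups. The match was looser in IL-31 ears. There library 1 had the highest level of the 40 genes (1.13) at a score of 0.36. Library 3 had 0.39 at a score of 1.99, and library 4 had -0.12 at 0.80. Libraries fell into separate sets on this score, so no correlation over all of them is given.

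Within groups, the limma coefficient on the neutrophil score was above 0 for each of the other 40 genes, from 0.04 ± 0.05 (Irgm2) to 1.11 ± 0.11 (Oasl1), with a median of 0.365 log2 units per unit of score. Over all 16461 tested genes the median was -0.0037 and 47.4% were above 0. For Ifi27l2a it was -0.09 ± 0.05, the single negative value of the 41. These coefficients are descriptions with no test, as the gene was singled out with its values known. After Oasl1 the highest were Rsad2 (1.02 ± 0.08), Oas3 (1.01 ± 0.09) and Isg15 (0.96 ± 0.11). By role, coefficients ran from 0.40 to 1.11 in the Oas genes and from 0.34 to 0.87 in the Ifit genes, and from 0.04 to 0.42 in the GTPases and 0.07 to 0.10 in antigen processing. Between libraries of a group the SD was 2.01 log2 units for Oasl1, 0.42 for Ifi27l2a and 0.21 for Tap1. The coefficients of Ifi27l2a and Irgm2 lay within about 2 SE of 0. Leaving out PBS libraries 3 and 5, which lie farthest from the median score, gave -0.13 ± 0.06 for Ifi27l2a, 0.005 ± 0.056 for Irgm2 and a median of 0.32 for the 40.

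**Figure D4:**
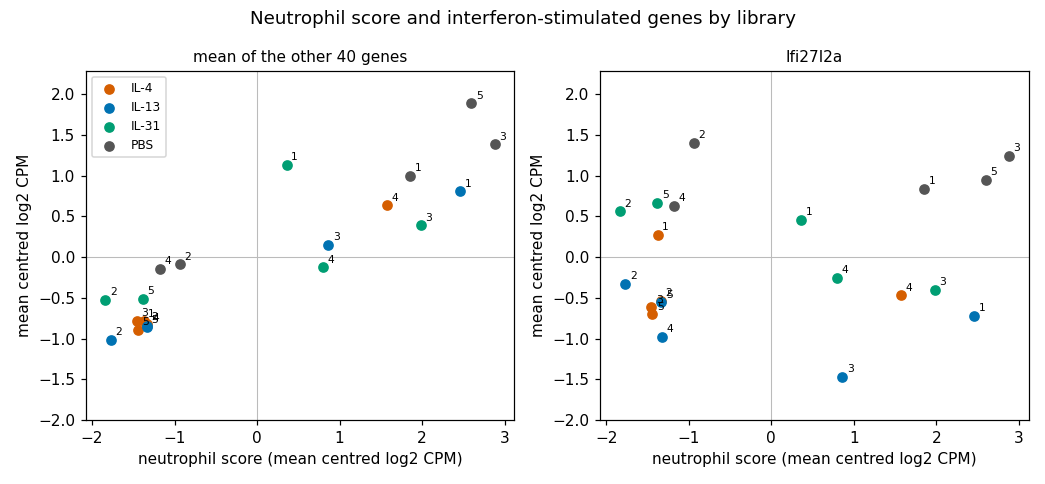
Mean centred log2 CPM of the other 40 genes (left) and of Ifi27l2a (right) against the neutrophil score, 1 point per library with its number. On the left, libraries of every group with a score above 0 lie higher than those of the same group below 0; on the right, PBS libraries lie between 0.63 and 1.41 at either end of the score.

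Adding a score to the model changed the calls. With the neutrophil score, IL-4 ears had 7 genes called lower (Bst2, Ifi27l2a, Ifit3, Igtp, Psmb8, Psmb9 and Trim30a), IL-13 ears 16 and IL-31 ears 1, Ifi27l2a, at -0.90 (adjusted p = 0.0276). In that fit 10.3% of all tested genes were called lower for IL-4, 11.9% for IL-13 and 2.47% for IL-31, so the IL-31 count was at the background and the IL-4 count was nearer to it than without the score. With the macrophage score, each cytokine comparison had 1, and it was Ifi27l2a each time, at -1.53 for IL-4 (adjusted p = 0.00824), -1.91 for IL-13 (adjusted p = 0.00209) and -0.85 for IL-31 (adjusted p = 0.0333). In the macrophage fit 8.24% of all tested genes were called lower for IL-4, 13.3% for IL-13 and 5.91% for IL-31. Some macrophage markers followed the neutrophil score themselves, such as Cd14 (coefficient 1.32), Fcgr1 (0.78) and Ly6c2 (0.71), and others, such as Csf1r (-0.03), did not. Loss of calls in genes that follow that score is thus partly built into this fit. It cannot separate Ifi27l2a from macrophage content. Under the macrophage score the IL-4 values of Isg15 (0.98), Oasl1 (0.74), Oas3 (0.59) and Rsad2 (0.48) were above 0.

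The marker lists themselves differed between groups. Of all 16461 tested genes, 9.63% were called lower for IL-4, 9.8% for IL-13 and 1.2% for IL-31, and 1353, 1637 and 852 genes were called higher. These are the background for each list below. Of 25 macrophage and monocyte genes in the table, 12 were called lower in IL-4 ears, 10 in IL-13 ears and 0 in IL-31 ears, with medians of -0.96, -0.78 and -0.28. Summed macrophage levels were 452 to 652 CPM in IL-4 ears, 450 to 947 CPM in IL-13 ears and 612 to 1006 CPM in IL-31 ears, against 860 to 1899 CPM in PBS ears. Of 21 neutrophil genes, IL-4 ears had 1 called lower, and IL-13 and IL-31 ears 0, with Asprv1 called higher in all 3. Without Asprv1, a protease gene that epidermis also expresses, the neutrophil genes summed to 145 to 570 CPM in IL-4 ears, 163 to 1053 in IL-13 ears and 165 to 783 in IL-31 ears, against 183 to 1799 in PBS ears. Retnlg, a defining neutrophil gene, stood at the lowest value of the table in IL-4 library 1 and IL-31 libraries 2 and 5. Endothelial genes were called lower in 3 of 15 cases for IL-4, 9 for IL-13 and 0 for IL-31, and T, NK and innate lymphoid genes in 0 of 12 for each. Of 7 plasmacytoid dendritic cell genes, 3 were called lower and 1 higher in IL-4 ears, 4 and 2 in IL-13 ears, and 0 and 1 in IL-31 ears. Among them, Cox6a2 was called lower in IL-4 and IL-13 ears, as were all listed skeletal muscle genes. Ly6d was called higher in each comparison, as were most listed epidermal genes. Whether the calls of Cox6a2 and Ly6d come from plasmacytoid dendritic cells was not tested. The part of these cell types in the lower interferon-stimulated genes was not tested. Macrophage scores were at most 0.0065 in IL-4 libraries and at least 0.18 in PBS libraries. Macrophage content and IL-4 therefore cannot be told apart by the macrophage fit. In IL-13 libraries these scores ran from -0.80 to 0.43 and overlapped those of PBS.

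Upstream genes of the pathway were followed from lists chosen with earlier results known. Of 21 interferon genes listed, 1 was in the table used: Ifnk, the keratinocyte type I interferon. The others were not in it and could not be analysed here. Ifnk had -2.68, -1.99, -2.09, 1.06 and -2.68 log2 CPM in IL-4 ears, 0.45, -2.68, -0.24, -2.68 and -1.72 in IL-13 ears and 0.11, -2.68, -1.39, -0.60 and -2.68 in IL-31 ears, against 1.42, -2.68, 1.92, -2.04 and 0.84 in PBS ears. It was high in IL-4 library 4, IL-13 library 1, IL-31 library 1 and PBS libraries 1, 3 and 5, and at the lowest value of the table in 7 libraries. Its differences of -1.57 ± 0.94 for IL-4, -1.27 ± 0.94 for IL-13 and -1.34 ± 0.94 for IL-31 did not pass (adjusted p = 0.275, 0.364 and 0.389).

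Of 9 receptor and kinase genes, 1 was called higher in each comparison, Ifnlr1, the specific chain of the type III interferon receptor. In IL-4 ears 1 was called lower, Ifnar2. Of all 16461 tested genes, 1353 were called higher for IL-4, 1637 for IL-13 and 852 for IL-31, and 9.63% were called lower for IL-4. A single call in a list of 9 does not set it apart from all tested genes. Ifnlr1 had 5.12, 5.01, 5.07, 5.17 and 5.19 log2 CPM in IL-4 ears, 5.03, 4.99, 4.85, 5.23 and 5.26 in IL-13 ears and 4.97, 5.07, 5.25, 5.09 and 5.07 in IL-31 ears, against 4.87, 4.55, 4.77, 4.73 and 4.70 in PBS ears. The IL-4 and IL-31 libraries were all above the PBS libraries, and IL-13 library 3 was the exception among IL-13 libraries. The rise was 0.39 ± 0.09 for IL-4 (adjusted p = 0.00557), 0.35 ± 0.09 for IL-13 (adjusted p = 0.00901) and 0.37 ± 0.09 for IL-31 (adjusted p = 0.0231). Epidermal marker genes moved the same way, with 10, 12 and 11 of 16 called higher, and their part in the Ifnlr1 result was not tested. The IL-31 call was lost when IL-31 library 3 or 5 or PBS library 1, 2 or 3 was left out, and the value ranged over 0.32 to 0.40 in the 10 fits that each left out 1 library. Ifnar2, a chain of the type I receptor, fell by 0.54 ± 0.15 in IL-4 ears (adjusted p = 0.0194) and was -0.43 ± 0.15 in IL-13 ears (adjusted p = 0.0507).

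Of 7 transcription factor genes outside the set, 2 were called lower in IL-4 ears and in IL-13 ears, Irf1 and Irf8, and 0 in IL-31 ears. The shares of all tested genes were 9.63, 9.8 and 1.2%. Irf8, a factor of macrophages and dendritic cells, had 2.48, 2.50, 2.60, 3.30 and 2.67 log2 CPM in IL-4 ears, 3.17, 2.85, 3.16, 3.26 and 2.88 in IL-13 ears and 3.89, 3.22, 3.58, 2.84 and 3.08 in IL-31 ears, against 4.16, 3.93, 4.43, 3.29 and 4.37 in PBS ears. PBS library 4 was the lowest of its group and was matched by IL-4 library 4, and the other IL-4 and all IL-13 libraries were lower. Irf8 fell by 1.33 ± 0.22 in IL-4 ears (adjusted p = 0.00133) and by 0.97 ± 0.22 in IL-13 ears (adjusted p = 0.00581). Irf1, an interferon-induced factor, fell by 0.69 ± 0.16 (adjusted p = 0.00683) and by 0.49 ± 0.16 (adjusted p = 0.0351), and the IL-13 call was lost in 6 of 10 fits that each left out 1 library.

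Of 10 sensing genes outside the set, Tlr7 (-0.91 ± 0.31, adjusted p = 0.0493) and Tmem173, which encodes STING (-0.67 ± 0.23, adjusted p = 0.05), were called lower in IL-4 ears, and each call was lost in 8 of 10 fits that left out 1 library. IL-13 and IL-31 ears had 0 of 10. Of all tested genes, 9.63% were called lower for IL-4, 9.8% for IL-13 and 1.2% for IL-31. None of 6 inhibitor genes, among them Socs1 and Socs3, was called in limma fits of the 3 comparisons. Cxcl10, a chemokine induced by interferons, was -2.37 ± 1.02 for IL-4, -2.23 ± 1.02 for IL-13 and -1.68 ± 1.02 for IL-31 without passing (adjusted p = 0.114, 0.128 and 0.314), and Cxcl9 did not pass either.

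Set against each other, the cytokine groups gave 0 calls among the 41 genes, and 0 among all tested genes (0%), in limma fits of the 3 pairs. Members with an unadjusted p under 0.05 numbered 0 for IL-4 against IL-13, 9 for IL-4 against IL-31 and 8 for IL-13 against IL-31, where 664, 1743 and 1200 of all tested genes did. The median log2 differences were -0.11, -0.62 and -0.43. With sample weights, 5 genes were called lower in IL-4 than in IL-31 ears (Ifi27l2a, Iigp1, Irgm2, Psmb8 and Psmb9) and 1 in IL-13 than in IL-31 ears (Ifi27l2a), where 3.25% and 3.01% of all tested genes were called lower.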

How the data were processed

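Libraries of total RNA were made with NEBNext Ultra II reagents, per the labels' protocols. Values are log2 CPM as deposited by the authors, for 16669 genes in 20 libraries. The submitters' processing notes name GRCm38 and edgeR; aligner, counter and annotation are not given in the sources used. The lowest value, -2.684 in each library that reaches it, corresponds to 0.156 CPM added before the log, and fold changes on this scale understate the change of low genes. Low values were whole multiples of 1 read in 80.7 to 85.1% of cases, within 0.02 reads, which is too few for a count test. Their spacing gave the depth of 6.11 to 23.7 M reads. Identifiers were matched to symbols for 16644 genes, and coordinates come from GENCODE M21 on GRCm38.

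A gene entered the tests when 5 or more libraries had a log2 value of 0 or above (16461 did and 208 did not). limma 3.58.1 in R 4.3.3 was fitted to all 20 libraries with the 4 groups, with a mean-variance trend in the variance prior, and p-values were adjusted by Benjamini-Hochberg over all tested genes, two-sided at 0.05. The code was tested on simulated data. The 41 genes and all lists were chosen with earlier results of these data known. Every gene of the set is accounted for; 1 gene of the pathway lists is not reported here. Values per library are given for Ifi27l2a, for called genes among the 3 of smallest adjusted p in a comparison, for the gene of highest mean in each role, and for those of highest coefficient on the neutrophil score; Irgm2, Ifi35 and pathway genes shown per library complete these. Shared sequence was counted as 75-base windows of the longest GENCODE transcript that occur in another gene's transcript. Alternatives covered filters, a pseudocount of 1 CPM, quantile normalization, sample weights, marker scores as covariates, the replicate number as a block and leaving out libraries. Python 3.11.15, numpy 2.4.6, pandas 2.3.3 and matplotlib 3.10.9 were used.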

Additional observations from a re-analysis of the deposited data

Results flagged for a closer look

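A single library lay far from the other 4 of its group, by the ratio of its gap to the group's range (above 0.71), in 16 of the 164 gene and group combinations checked. Chance flags about 1 in 20 such groups.

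IL-4 library 4, the single IL-4 library with a neutrophil score above 0, was the high one in 10 of the 16. Its values were 2.68 log2 CPM for Ifit3b, 2.78 for Oasl1, 3.10 for Mx1, 4.31 for Rsad2, 2.97 for Cmpk2, 1.49 for Ifi44, 2.78 for Trim30a, 3.97 for Isg15, 4.34 for Parp14 and 1.49 for Gbp5. IL-31 library 1 was high in Bst2 (4.29 log2 CPM), Gbp5 (2.85) and Ifi47 (3.06), and IL-31 library 4 in Psmb9 (3.56). IL-13 library 2 was low in Tap1 (5.60). Ifi27l2a was high in IL-4 library 1 (4.54), a library with a low neutrophil score.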

How the results depend on the processing

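Counts of the 41 genes called lower moved with the processing. For IL-4, 23 became 8 under quantile normalization, 12 in a fit of the 10 libraries compared, 4 with sample weights, 7 with the neutrophil and 1 with the macrophage score as covariate, 8 without and 0 with only the libraries of neutrophil score above 0, 4 without PBS libraries 1, 2 and 3, and 0 with the muscle score. For IL-13, 17 became 5, 5, 4, 16, 1, 6, 0, 1 and 0 in the same order. Of all tested genes, these fits called lower 7.28, 5.68, 7.995, 10.3, 8.24, 5.89, 0, 4.66 and 0.0061% for IL-4, and 7.27, 4.76, 9.67, 11.9, 13.3, 2.72, 0, 1.82 and 0% for IL-13, so a count of 0 there says nothing particular about the 41. Leaving out single libraries gave 9 to 25 for IL-4, 4 to 23 for IL-13 and 0 to 3 for IL-31. Of all tested genes, 7.02 to 10.4%, 6.46 to 13.1% and 0 to 6.31% were called lower in those fits. Alternatives with PBS libraries 1 to 3 left out, only the libraries above 0, or the muscle score were chosen after seeing the data. The cause was not tested.

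Ifi27l2a was called in IL-4 and IL-13 ears in 12 of 14 alternatives beside leaving out single libraries. The exceptions were the libraries of neutrophil score above 0 (-1.48 and -2.11) and the muscle score (-1.24 and -1.65), which called 0 and at most 2 of all 16461 genes. For IL-31 the main fit called 0 interferon-stimulated genes. Ifi27l2a became the 1 called with a stricter filter (-0.81), a pseudocount of 1 CPM (-0.78) and quantile normalization (-0.82). It was also the 1 called with the replicate block (-0.81), the neutrophil score (-0.90) and the macrophage score (-0.85). Of all tested genes, these fits called lower 1.52, 1.31, 1.19, 1.59, 2.47 and 5.905% in the same order. A single call there does not set the interferon-stimulated genes apart from all tested genes. Ifi27l2a ranged over -0.92 to -0.66 when single libraries were left out. IL-4 against IL-31 gave 5 interferon-stimulated genes with sample weights and 0 to 2 without single libraries. IL-13 against IL-31 gave 1 with sample weights, 1 with the neutrophil score and 0 to 1 without single libraries. With sample weights, 3.25 and 3.01% of all tested genes were called lower in these comparisons. With the neutrophil score it was 0.875% for IL-13 against IL-31.

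Signs reversed in genes that were not called. With the macrophage score, IL-4 values were 0.98 for Isg15, 0.11 for Stat2, 0.14 for Irgm1, 0.59 for Oas3, 0.48 for Rsad2 and 0.74 for Oasl1; IL-13 values were 1.19 for Isg15, 0.052 for Irgm1, 0.61 for Oas3 and 0.41 for Oasl1; and IL-31 values were 0.21 for Isg15, 0.052 for Irgm1 and 0.017 for Tap1. With the neutrophil score, Isg15 was 0.15 for IL-13 and 0.16 for IL-31, and Tap1 0.062 for IL-31. Without the libraries of neutrophil score above 0, Isg15 was 0.12 for IL-4, 0.46 for IL-13 and 0.96 for IL-31, Tap1 0.038, 0.145 and 0.217, and for IL-31 Bst2 was 0.055 and Irgm1 0.024. Tap1 in IL-31 ears was 0.066 with sample weights and 0.03 without PBS libraries 1, 2 and 3, where Irgm2 was -0.28. Leaving out single libraries gave -0.10 to 0.043 for Tap1, -0.083 to 0.22 for Irgm2 and -0.41 to 0.001 for Irgm1 in IL-31 ears.

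Same-numbered samples correlated at -0.24 to 0.49 (median 0.04), with 10 of 30 pairs over 0.1. The median was 0.02 for samples of other numbers and groups, and 3 of 20 libraries correlated best with their own number. What the number stands for is not stated, and these correlations cannot show whether same-numbered samples shared a batch. With the number as a replicate block, 23 interferon-stimulated genes were called lower for IL-4, 16 for IL-13 and 1 for IL-31. Of all tested genes, 9.65, 9.79 and 1.59% were called lower in that fit.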

Other observations

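Asprv1, on the neutrophil list and also expressed in the epidermis, rose by 1.69 ± 0.50 in IL-4 ears (limma adjusted p = 0.0256), 1.95 in IL-13 ears (adjusted p = 0.0115) and 1.83 in IL-31 ears (adjusted p = 0.0365), while 19 or 20 of the 21 neutrophil genes had a negative value in each comparison.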
